A study of Homo sapiens with 6 samples.

Results

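The genes described here are the 109 nuclear protein-coding genes of the respiratory chain and ATP synthase, out of 19974 protein-coding genes on chromosomes 1 to 22 and X. They were chosen by symbol in a RefSeq GRCh38 gene table: symbols that start with NDUFA, NDUFB, NDUFC, NDUFS, NDUFV, UQCR or ATP5, the genes SDHA to SDHD with their assembly factors, and COX followed by a digit. The symbols matched 112 genes, and the 3 encoded by mitochondrial DNA were left out. By complex, 46 belonged to complex I, 8 to complex II, 9 to complex III, 26 to complex IV and 20 to complex V, the ATP synthase. By role, 76 were ordinary subunits, 21 were assembly factors and 6 were tissue-restricted isoforms (COX4I2, COX6A2, COX6B2, COX7A1, COX7B2 and COX8C). The others were 2 gene copies (UQCRHL and ATP5MGL), 2 readthrough genes (NDUFC2-KCTD14 and ATP5MF-PTCD1), the ATP synthase inhibitor ATP5IF1 and the supercomplex factor COX7A2L.

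Chromatin accessibility was measured by ATAC-seq, in which a transposase cuts open DNA and tags it for sequencing, in nuclei of Huh7, an established line from a human hepatocellular carcinoma. All cells carried a knockout of ARID1A, a subunit of the BAF (SWI/SNF) chromatin remodelling complex, and stably expressed Flag-tagged ARID1A from a lentivirus. The WT group received wild-type ARID1A, the V2084D group received ARID1A with the V2084D substitution, and the V2084D shSTUB1 group received the V2084D protein together with knockdown of STUB1, a ubiquitin ligase. Each of the 3 groups had 2 libraries, and no label says whether these came from separate cultures, so a p-value covers no more than library-to-library spread, which may be technical. No control hairpin is named for the V2084D group, so knockdown of STUB1 and carriage of a hairpin cannot be told apart. All groups share the knockout and overexpression background, and no source used here says whether the knockout line is 1 clone. Each library came as its own list of peaks, the short regions where cuts pile up above the local background.

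The respiratory chain passes electrons from NADH (complex I) and succinate (complex II) through complex III to oxygen at complex IV, and the proton gradient that results drives ATP synthase. Nearly all of its proteins are encoded in the nucleus, and a few are encoded in mitochondrial DNA. The nuclear promoters are typically rich in CpG without a TATA box, and the factors known to act on many of them are NRF1, the ETS-family factor GABP and YY1. In liver the system is abundant, and several complex IV subunits have separate liver and heart or muscle isoforms.

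A member was counted as having a gene-end peak in a library when a listed peak came within 1000 bp of the first or last base of the gene. The promoter stretches below show what lay at these ends. They are of 1 gene per complex with a peak in all 6 libraries and 3 genes with a peak listed in both V2084D and neither WT library. COX5B, which holds 2 kinds of motif, and COX6B1, which had no peak, are added. Each is the 150 bases before the first-listed start site in RefSeq (GRCh38.p14), on the strand of the gene and 5′ to 3′, and no protein-coding gene in the table overlaps any of them. Capitals mark matches to the letters CCGGAAG (a core bound by ETS factors), GCGCATGC (NRF1) or AAGATGGCG (YY1), on either strand.
NDUFB4: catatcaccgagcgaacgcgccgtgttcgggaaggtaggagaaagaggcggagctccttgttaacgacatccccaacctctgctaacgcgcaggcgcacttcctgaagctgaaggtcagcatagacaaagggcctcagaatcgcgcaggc
SDHB: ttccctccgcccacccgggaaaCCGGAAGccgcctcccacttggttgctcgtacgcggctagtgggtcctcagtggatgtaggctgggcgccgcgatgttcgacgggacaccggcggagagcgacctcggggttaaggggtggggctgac
UQCR11: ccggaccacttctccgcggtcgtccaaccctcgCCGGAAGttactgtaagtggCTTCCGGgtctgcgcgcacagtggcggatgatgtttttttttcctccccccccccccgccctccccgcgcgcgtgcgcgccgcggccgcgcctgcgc
COX6A1: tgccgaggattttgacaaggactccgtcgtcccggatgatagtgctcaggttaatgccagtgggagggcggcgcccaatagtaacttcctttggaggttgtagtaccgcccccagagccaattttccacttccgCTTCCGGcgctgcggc
ATP5F1C: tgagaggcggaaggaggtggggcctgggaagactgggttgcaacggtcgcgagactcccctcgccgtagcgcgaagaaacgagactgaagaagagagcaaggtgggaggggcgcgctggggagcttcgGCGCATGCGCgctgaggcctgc
COX5B: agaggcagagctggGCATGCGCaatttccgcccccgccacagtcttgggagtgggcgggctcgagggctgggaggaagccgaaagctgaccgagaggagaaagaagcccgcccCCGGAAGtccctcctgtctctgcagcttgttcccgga
NDUFA3: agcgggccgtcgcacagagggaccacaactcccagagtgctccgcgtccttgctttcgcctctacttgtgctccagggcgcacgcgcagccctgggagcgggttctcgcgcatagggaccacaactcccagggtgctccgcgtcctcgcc
SDHA: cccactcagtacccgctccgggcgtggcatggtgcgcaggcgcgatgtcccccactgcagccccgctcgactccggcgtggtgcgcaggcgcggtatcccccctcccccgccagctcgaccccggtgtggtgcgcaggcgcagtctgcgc
ATP5ME: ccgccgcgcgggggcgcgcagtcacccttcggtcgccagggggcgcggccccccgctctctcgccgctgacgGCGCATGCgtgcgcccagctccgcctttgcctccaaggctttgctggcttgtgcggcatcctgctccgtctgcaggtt
COX6B1: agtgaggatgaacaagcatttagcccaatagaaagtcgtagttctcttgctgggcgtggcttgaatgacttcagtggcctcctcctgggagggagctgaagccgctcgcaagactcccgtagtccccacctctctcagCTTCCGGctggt

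The NDUFB4 stretch, chr3:120596186-120596335 on the plus strand, belongs to an accessory subunit of complex I and has no match. That of SDHB, chr1:17054033-17054182 on the minus strand, belongs to the iron-sulphur subunit of complex II and has an ETS match whose first base is at position -128, counted with -1 as the base before the start. The UQCR11 stretch, chr19:1605463-1605612 on the minus strand, belongs to a small complex III subunit and has ETS matches at -117 and -97. In COX6A1, the ubiquitous isoform of a complex IV subunit, chr12:120437963-120438112 on the plus strand held an ETS match at -16. In ATP5F1C, the gamma subunit of the ATP synthase rotor, chr10:7788027-7788176 on the plus strand held NRF1 matches on both strands at -22 and -20 that overlap. COX5B, a complex IV subunit, has an NRF1 match at -136 and an ETS match at -37 in chr2:97645912-97646061 on the plus strand. The last 4 were chr19:54102705-54102854 (NDUFA3, plus strand, no match), chr5:218170-218319 (SDHA, plus strand, no match), chr4:674277-674426 (ATP5ME, minus strand, NRF1 at -78) and chr19:35648173-35648322 (COX6B1, plus strand, ETS at -12). Peaks covered all 150 bases of the SDHB stretch in every library, and no peak covered any base of the COX6B1 stretch. In the others the cover varied, also between libraries with a listed gene-end peak. In UQCR11 it was 0 bases in V2084D 1 and 150 in V2084D 2. In SDHA it was 4 in V2084D 1 and 150 in V2084D 2, and in COX5B 0 in WT 1 and 150 in V2084D 2.

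The lists differed in length. They held 10441 and 7401 summits in the WT libraries, 9231 and 30768 in the V2084D libraries, and 21728 and 15326 in the V2084D shSTUB1 libraries, in replicate order. The median summit held between 8 reads (WT 2) and 12 reads (V2084D 2), and the relative depth recovered from the lists ran from 1 (WT 2) to 1.70 (V2084D 2). At so few reads, an absent peak shows a lack of a call and says nothing on whether chromatin was closed. Of 14 hepatocyte or hepatoma marker genes, 11 had no gene-end peak in any library, ALB, AFP, TTR and HNF4A among them, and only APOA1, FOXA1 and FOXA3 had one. Among 5 markers each of leukocytes, endothelium and fibroblasts or stellate cells, 4 of each had none. The exceptions were SPI1, KDR and COL1A1, of which COL1A1 had a peak in all 6 libraries. Of all protein-coding genes, 41.8% had none. Only the outermost gene ends were scored, so a peak at a start site deeper inside a marker gene was not counted. Reads at the knocked-out locus were not used here.

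Gene-end peaks were common at the members in every library. In WT 1, WT 2, V2084D 1, V2084D 2, V2084D shSTUB1 1 and V2084D shSTUB1 2, 65, 50, 59, 93, 85 and 72 of the 109 members had one. These are 59.6%, 45.9%, 54.1%, 85.3%, 78.0% and 66.1% of the members, against 32.3%, 24.2%, 31.1%, 54.7%, 48.1% and 40.6% of all protein-coding genes. The order of the libraries was that of the length of their lists. When each list was cut to its 7234 strongest summits, the members with a peak numbered 53, 50, 50, 48, 50 and 46, and the share of all genes lay between 24.2% and 26.5%.

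**Figure D1:**
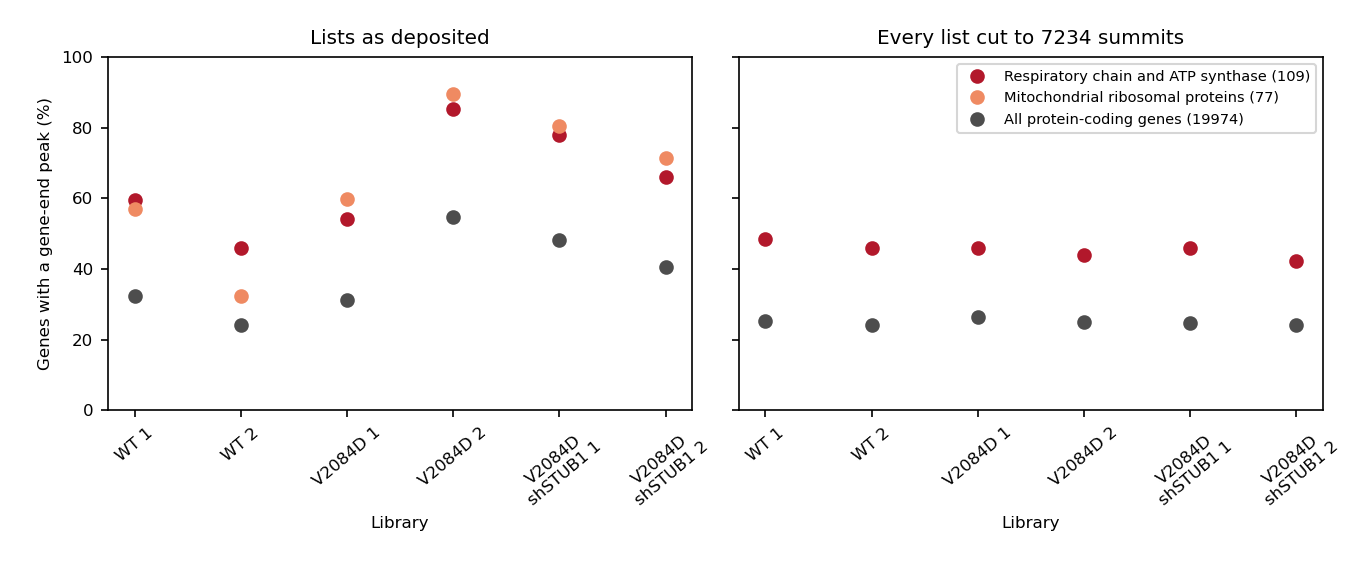
Each point is the share (%) of genes with a gene-end peak in 1 library, for the 109 members, the 77 mitochondrial ribosomal protein genes (left panel only) and all 19974 protein-coding genes. With the lists as deposited the members run from 45.9% to 85.3%, and with every list cut to 7234 summits from 42.2% to 48.6%, above all genes in each library of both panels.

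The mean number of members with a peak was 57.5 ± 10.6 (SD, n = 2) in WT, 76.0 ± 24.0 (SD, n = 2) in V2084D and 78.5 ± 9.19 (SD, n = 2) in V2084D shSTUB1. The 2 V2084D libraries, at 59 and 93, enclosed 1 of the WT values and both V2084D shSTUB1 values. V2084D exceeded WT by 18.5 members (two-sided exact permutation test over 4 libraries, p = 0.667), V2084D shSTUB1 exceeded V2084D by 2.5 (exact p = 1), and V2084D shSTUB1 exceeded WT by 21 (exact p = 0.333). The smallest p that 2 libraries against 2 can give is 0.333. Without V2084D 1 or without V2084D shSTUB1 1, the order of the V2084D and V2084D shSTUB1 means turned, with differences of -14.5 and -4.0. Without V2084D 2 the excess of V2084D over WT was 1.5.

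Members with a gene-end peak in the other lists nearly all had one in the longest list as well. V2084D 2, which had the most summits, had a gene-end peak at every member that had one in any other library, with 1 exception, COX7B, a complex IV subunit whose peak (6 reads) was listed only in WT 2. In all, 94 members had a gene-end peak somewhere. The number of libraries with a peak was 6 for 31 members, 5 for 24, 4 for 15, 3 for 13, 2 for 8, 1 for 3 and 0 for 15. The other 2 of the 3 were NDUFS6, an accessory subunit of complex I, and COX4I1, the ubiquitous isoform of complex IV subunit 4, both listed only in V2084D 2 with 9 reads each.

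**Figure D2:**
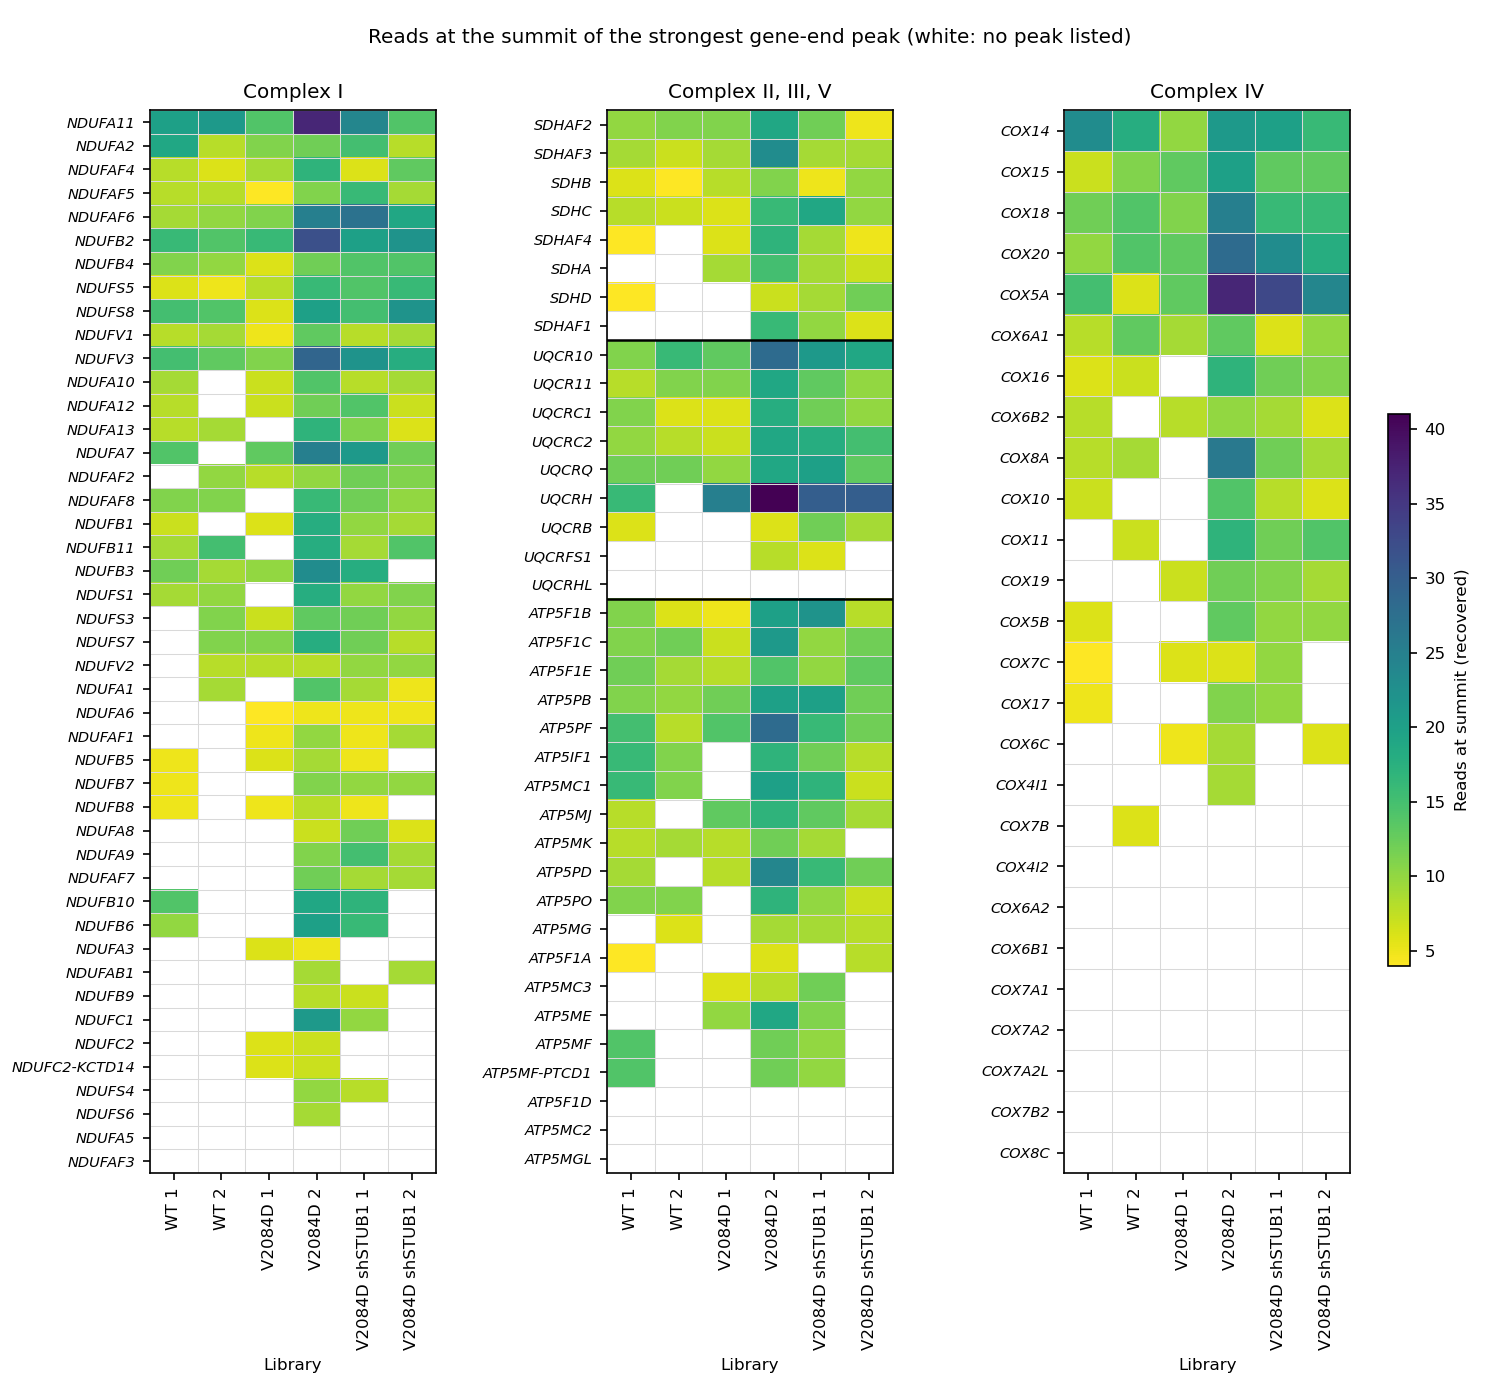
Rows are the members reported here, in panels by complex and sorted by the number of libraries with a peak; columns are the 6 libraries; colour gives the reads recovered at the summit of the strongest gene-end peak (4 to 41), and white means that no peak was listed. The V2084D 2 column is filled at 93 members. At the foot of the complex IV panel, 8 genes are white in all 6 libraries, 5 of them tissue-restricted isoforms.

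The 31 members with a gene-end peak in all 6 libraries made up 28.4% of the members, against 15.8% of all protein-coding genes. The share was 11 of 46 for complex I, 4 of 8 for complex II, 5 of 9 for complex III, 6 of 26 for complex IV and 5 of 20 for complex V. Assembly factors, the proteins that help build the complexes without staying in them, had 9 of 21 in all 6 libraries, and ordinary subunits had 22 of 76. No test was made of these counts. Of other genes for mitochondrial and ribosomal proteins, 16 of 77 mitochondrial ribosomal protein genes (20.8%) and 23 of 90 cytosolic ribosomal protein genes (25.6%) had a peak in all 6.

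In complex I the highest-ranked peaks with all 6 libraries were those of the accessory subunits NDUFB2, NDUFV3 and NDUFA11. The rank is the percentile of a peak's −log10 q (the authors' adjusted significance of the peak) within its own list. NDUFB2 (chr7:140696708-140706643, GRCh38) had folds over local background, the authors' values, of 8.02, 7.14, 7.8, 8.97, 7.09 and 8.33 in library order. Its summits held 16, 14, 16, 32, 20 and 22 reads, its mean percentile was 94.3, and the V2084D 2 value of 32 reads was the highest of the 6. NDUFV3 (mean percentile 89.6) had 15, 13, 11, 29, 22 and 18 reads, and NDUFA11 (mean percentile 89.5) had 20, 21, 14, 37, 24 and 14. In both, as in NDUFB2, the V2084D 2 library stood highest. That library also had the highest relative depth, 1.70, and these reads were not scaled for depth. Among the core subunits, which in this set form the arm that takes electrons from NADH to quinone, NDUFS8 and NDUFV1 had a peak in all 6, and NDUFV1, which holds the NADH site, had 8, 9, 5, 13, 8 and 9 reads. The core subunits NDUFS1, NDUFS3, NDUFS7 and NDUFV2 each missed 1 library.

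In complex II all 4 subunits and all 4 assembly factors had a gene-end peak in at least 3 libraries. SDHC, a membrane anchor, had peaks in all 6 libraries with 8, 7, 6, 16, 19 and 10 reads, and SDHB had 6, 4, 8, 11, 5 and 10. SDHB's mean percentile of 45.0 placed it below the middle of the lists although the whole stretch printed above was covered each time. SDHD, the other anchor, had 4, 7, 9 and 12 reads in WT 1, V2084D 2, V2084D shSTUB1 1 and V2084D shSTUB1 2, and no peak in WT 2 or V2084D 1. SDHA, the flavoprotein subunit, had no peak in either WT library.

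Complex III had 5 of 8 subunits in all 6 libraries: UQCR10, UQCRQ, UQCRC2, UQCR11 and UQCRC1. UQCR10, a small subunit, had 11, 16, 13, 28, 21 and 19 reads (mean percentile 90.6), UQCRQ, also a small subunit, had 12, 12, 10, 19, 20 and 13 (88.8), and the core subunit UQCRC2 had 10, 8, 7, 19, 18 and 15 (72.0). The hinge subunit UQCRH had the highest mean percentile of any member, 95.6, over the 5 libraries with a peak, with 16, 25, 41, 30 and 30 reads. It had none in WT 2. UQCRFS1, the Rieske iron-sulphur protein, had the fewest libraries of the 8 subunits, with 8 reads in V2084D 2 and 6 in V2084D shSTUB1 1 and no other peak.

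In complex IV only 2 of the 10 ordinary subunits, COX5A and COX6A1, had a peak in all 6 libraries. COX5A had 15, 6, 13, 37, 33 and 24 reads (mean percentile 78.6) and COX6A1 had 8, 13, 9, 13, 6 and 10 (70.6). The assembly factors of the complex had more: COX14, COX15, COX18 and COX20 of 9 had peaks in all 6. COX18, an insertase for a mitochondrially encoded subunit, had 12, 14, 11, 25, 16 and 16 reads (mean percentile 87.2), COX14 had 23, 18, 10, 21, 20 and 16 (83.9), and COX15, which takes part in haem A synthesis, had 7, 11, 13, 20, 13 and 13 (77.0).

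In complex V the leading genes were ATP5PB, a peripheral stalk subunit, with 11, 10, 12, 20, 20 and 12 reads (mean percentile 84.5), the F1 epsilon subunit ATP5F1E with 12, 9, 8, 14, 10 and 13 (72.8), and the stalk subunit ATP5PF with 15, 8, 14, 28, 16 and 12 (69.0). The catalytic beta subunit ATP5F1B had 11, 6, 5, 20 and 8 reads at one end of the gene in every library but V2084D shSTUB1 1, where its strongest peak, with 22 reads, lay at the other end. The alpha subunit ATP5F1A, its partner in the catalytic ring, had only 4, 6 and 8, in WT 1, V2084D 2 and V2084D shSTUB1 2. ATP5IF1, which inhibits ATP hydrolysis, had 16, 11, 17, 12 and 8 reads and missed V2084D 1.

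Of the 24 members with a peak in 5 libraries, 9 missed WT 2 (NDUFA10, NDUFA12, NDUFA7, NDUFB1, SDHAF4, UQCRH, COX6B2, ATP5MJ and ATP5PD) and 9 missed V2084D 1 (NDUFAF8, NDUFA13, NDUFB11, NDUFS1, COX16, COX8A, ATP5IF1, ATP5MC1 and ATP5PO). WT 1 was missed by 4 (NDUFAF2, NDUFS3, NDUFS7 and NDUFV2) and V2084D shSTUB1 2 by 2 (NDUFB3 and ATP5MK). WT 2 and V2084D 1 had the 2 shortest lists.

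The 15 members without a gene-end peak in any library made up 13.8% of the members, against 41.8% of all protein-coding genes. Of these, 5 were tissue-restricted isoforms of complex IV: COX4I2, COX6A2, COX7A1, COX7B2 and COX8C. The sixth restricted isoform, COX6B2, known from testis, had a peak in 5 libraries. In each, the peak also came within 1000 bp of an end of the neighbouring gene GARIN5B. UQCRHL and ATP5MGL, both copies of subunit genes, also had none. COX6B1, ATP5F1D, NDUFAF3, NDUFA5, COX7A2, COX7A2L and ATP5MC2 were also without one.

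For NDUFAF3, NDUFA5, COX7A2, COX7A2L and ATP5MC2 the peak lay inside the gene, away from its outermost ends. NDUFAF3, an assembly factor, had such a peak in all 6 libraries with 17, 17, 16, 34, 35 and 17 reads, with summits 1241 to 1510 bp in from an end. NDUFA5, COX7A2L and ATP5MC2 also had one in all 6. In each of these 4 genes the RefSeq table lists a start site inside the gene, and the peak came within 1000 bp of it in every library. COX7A2, the liver-type isoform of a complex IV subunit, had an internal peak in V2084D 1, V2084D 2, V2084D shSTUB1 1 and V2084D shSTUB1 2 with 7, 14, 9 and 8 reads and none in either WT library. These summits also lay near a listed start site inside the gene, at 24 to 379 bp. When only listed start sites were used, for the 90 members in the RefSeq promoter table, 4 (4.44%) had no peak in any library and 31 (34.4%) had one in all 6, against 37.9% and 17.6% of the 15812 listed genes.

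COX6B1 and ATP5F1D were the 2 ubiquitous subunits with no peak at the ends or inside the gene. The nearest peak to COX6B1 lay 3407, 19261, 4692, 3111, 3101 and 4426 bp away in library order. For ATP5F1D, the delta subunit of F1, the nearest lay 1307 bp away in V2084D 2 and at least 16071 bp away in the other libraries.

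Between groups, members were compared by whether both libraries of a group had a peak and neither of another did. The 3 comparisons share libraries with one another. In both V2084D and neither WT library there were 10 members (9.17%), against 5.07% of all protein-coding genes. Members also more often had a gene-end peak in any library, 94 of 109 against 11618 of 19974 genes. The shares were not adjusted for this. Of mitochondrial ribosomal protein genes 10.4% had this pattern, and of cytosolic ribosomal protein genes 6.67%. In the opposite direction there were 0 members, against 0.0501% of all genes. No test was run on these counts, so there is no p-value beside the 0. The 10 were NDUFAF1, NDUFA3, NDUFA6, NDUFC2 and its readthrough NDUFC2-KCTD14, SDHA, COX19, COX6C, ATP5MC3 and ATP5ME.

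The peaks behind these 10 were small in the V2084D 1 library, with 4 to 10 reads. ATP5ME, a subunit of the ATP synthase membrane part, had 10 reads in V2084D 1 and 19 in V2084D 2 (folds 6.4 and 7.04), with 11 in V2084D shSTUB1 1 and no peak in V2084D shSTUB1 2. Its stretch above was covered in V2084D 2 and V2084D shSTUB1 1, while the V2084D 1 summit lay at -454 bp from the start. SDHA had 9 and 15 reads in V2084D 1 and V2084D 2 and 9 and 7 in the V2084D shSTUB1 libraries, and its summits lay at -357, -141, -208 and -200 bp from the start. NDUFA6, an accessory subunit of complex I, had 4, 5, 5 and 5 reads in the same 4 libraries, which placed its peaks near the bottom of their lists (mean percentile 15.7). For NDUFC2, an accessory subunit, and NDUFC2-KCTD14, which share 1 peak per library, the 2 V2084D peaks did not overlap and lay 124 bp apart. In the other 8 the peaks of the 2 V2084D libraries overlapped.

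Of the 10, 4 (NDUFAF1, NDUFA6, SDHA and COX19) also had a peak in both V2084D shSTUB1 libraries, 3 (COX6C, ATP5MC3 and ATP5ME) in 1 of them, and 3 in neither. These last, NDUFA3, NDUFC2 and NDUFC2-KCTD14, were the members with a peak in both V2084D and neither V2084D shSTUB1 library. They are 2.75% of the members, against 0.656% of all genes, and stand for 2 loci. NDUFA3, an accessory subunit, had 6 reads in V2084D 1 and 5 in V2084D 2, and its peaks covered 91 and 132 of the 150 bases printed above. In the opposite direction, both V2084D shSTUB1 and neither V2084D library, there were 0 members, against 0.365% of all genes.

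In both V2084D shSTUB1 and neither WT library there were 8 members (7.34%), against 7.07% of all genes, a share near the background. They were NDUFAF1, NDUFAF7, NDUFA6, NDUFA8, NDUFA9, SDHAF1, SDHA and COX19. All 8 also had a peak in V2084D 2, and 4 in V2084D 1. The opposite direction, WT and not V2084D shSTUB1, held 0 members, against 0.135% of all genes. NDUFA9, an accessory subunit, had the most reads of the 8, 15 and 9 in the V2084D shSTUB1 libraries. The peaks of the 2 V2084D shSTUB1 libraries overlapped for 5 of the 8, while those of NDUFAF1, NDUFA6 and COX19 lay 104, 55 and 195 bp apart.

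The direction of these counts moved with the length of the lists. At 7234 summits per list, 2 members (SDHAF4 and ATP5ME) had a peak in V2084D and not WT, against 1.97% of all genes, and 3 (NDUFAF5, NDUFAF8 and ATP5IF1) had one in WT and not V2084D, against 1.74%. ATP5ME was the 1 member kept of the 10. For V2084D and not V2084D shSTUB1 the count became 2 (SDHAF4 and ATP5ME), against 1.68% of all genes. For the opposite direction it became 5 (NDUFAF5, NDUFA9, NDUFB7, UQCRB and COX5B; 4.59%), against 1.28%. For V2084D shSTUB1 and not WT it became 4 (3.67%), with NDUFA9 the 1 kept of the 8, and for WT and not V2084D shSTUB1 it became 3 (2.75%), each against 1.75%. Without V2084D 2, the longest list, 9 members (8.26%) had a peak in both WT libraries and not in V2084D 1, against 3.49% of all genes. In the same way 21 members (19.3%) had one in both V2084D shSTUB1 libraries and not in V2084D 1, against 10.8%. What share of the group differences the depth of the libraries made was not tested.

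**Figure D3:**
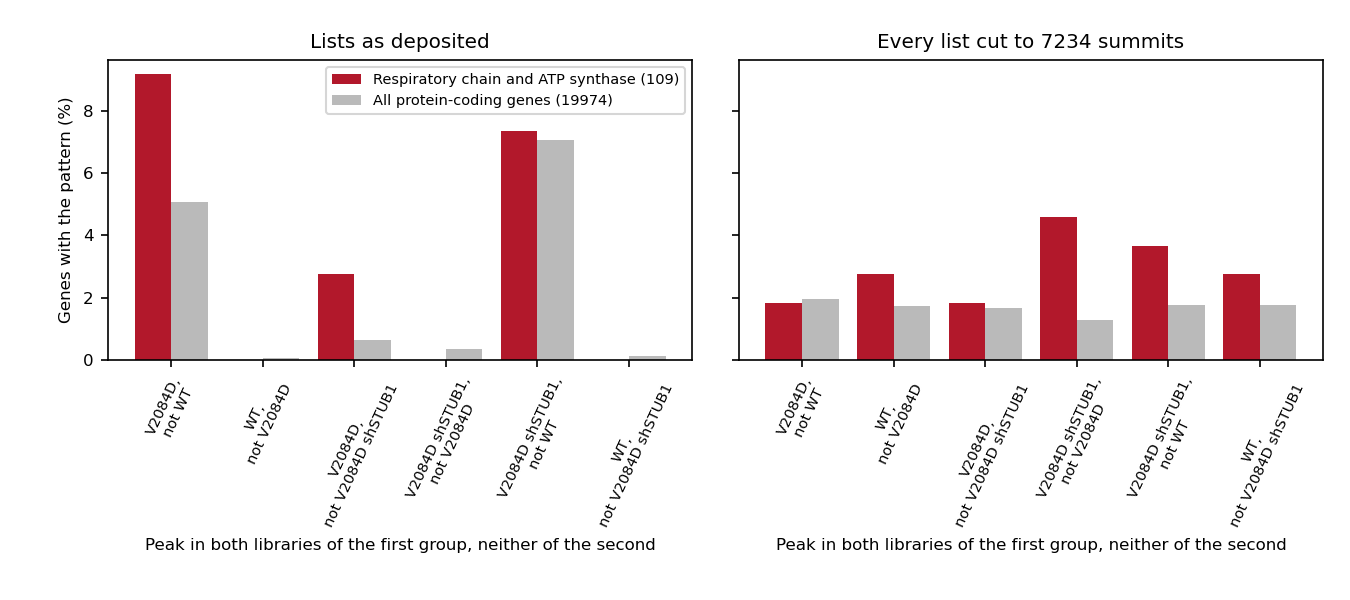
Bars give the share (%) of the 109 members and of all 19974 protein-coding genes that had a peak in the whole of one group and nowhere in another, for 6 directions; the left panel uses the lists as deposited and the right panel every list cut to 7234 summits. On the left the members reach 9.17% and 7.34% in the directions away from WT and 0 toward WT; on the right they run from 1.83% to 4.59% in all 6 directions.

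Most member peaks sat at the start of the gene. Over the 6 libraries there were 424 pairs of a member and its strongest peak, and a start site was listed for 372 of them. The summit lay before the nearest start in 287 of the 372, and within 200 bp before it in 208 (55.9%). The median distance, in either direction, was 97, 156, 146, 75.5, 123 and 71 bp in library order. In NDUFA7, an accessory subunit, the strongest peak of each of its 5 libraries lay at the far end of the gene, 13006 to 13269 bp from the start. There the peak also came within 1000 bp of an end of CD320. A weaker peak lay at its start in 4 of these libraries. In ATP5F1B, NDUFB6 and SDHAF2 the strongest peak was at one end in some libraries and at the other end in others.

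**Figure D4:**
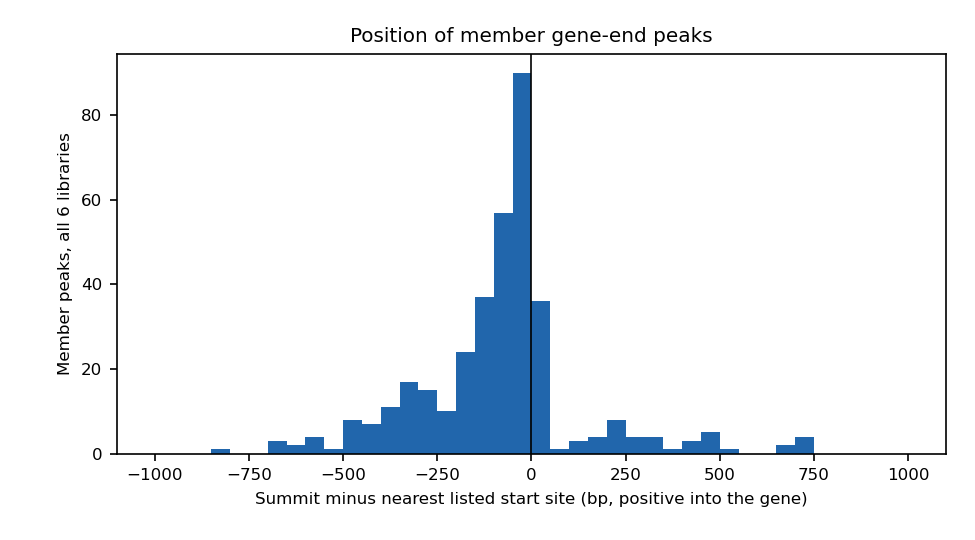
The histogram counts member peaks of all 6 libraries in narrow bins by the distance of the summit from the nearest listed start site (bp, negative before the start); 9 peaks over 1000 bp away are not drawn. The highest bin lies just before the start, and 208 of 372 summits lie within 200 bp before it.

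Peaks were often shared with a neighbouring gene. A peak was counted as shared when it came within 1000 bp of an end of each gene. Of the 94 members with a gene-end peak, 42 shared one with a neighbouring protein-coding gene in at least 1 library. In every library where they had a peak, 39 did so. Another 4 (NDUFC2, NDUFC2-KCTD14, ATP5MF and ATP5MF-PTCD1) shared only with their own readthrough or parent gene. In library order, 30 of 65, 25 of 50, 27 of 59, 46 of 93, 41 of 85 and 32 of 72 members with a peak shared it, readthrough pairs included, against 30.6% to 37.3% of all genes with a peak. Such a peak cannot be assigned to one gene of the pair. ATP5PF shared its peak with GABPA, which encodes the DNA-binding subunit of GABP, in all 6 libraries. Other neighbours were themselves mitochondrial: NDUFB5 and NDUFS6 shared with the mitochondrial ribosomal protein genes MRPL47 and MRPL36, and SDHD with TIMM8B, an import chaperone. Among the leading members, UQCRQ shared with GDF9, UQCR10 with ZMAT5, NDUFA11 with VMAC, NDUFV3 with WDR4, COX14 with GPD1, COX15 with CUTC, ATP5PB with WDR77 and ATP5F1E with PRELID3B. Some members had a peak in both libraries of 1 group and neither of another. Of these, SDHA shared with CCDC127, ATP5ME with MYL5, NDUFA9 with AKAP3, NDUFAF7 with CEBPZ and NDUFA8 with MORN5.

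The promoters held more NRF1 letters than promoters at large. In the 300 bases from 250 before to 50 after the first-listed start, GCGCATGC or its reverse was present in 18 of 90 members (20.0%), against 4.26% of all 15812 listed promoters and 7.38% of those of genes with a peak in all 6 libraries. The ETS letters CCGGAAG were present in 28.9%, against 14.2% and 25.0%, and the YY1 letters AAGATGGCG in 9 of 90 members, against 2.74% and 5.03%. Any of the 3 was present in 43.3% of members and 19.4% of all. The SP letters GGGCGG (60.0% against 58.5%), CCAAT (34.4% against 36.3%) and TATAAA (8.89% against 9.64%) were about as frequent in members as in all. The ETS and NRF1 letters can share a base where they meet, and GCGCATGCGC counts as 1 promoter although it matches on both strands. Of the 69 listed mitochondrial ribosomal protein promoters, 42.0% held ETS, 8.70% NRF1 and 18.8% YY1 letters. These are matches of letters only, and no test was made of the shares.

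**Figure D5:**
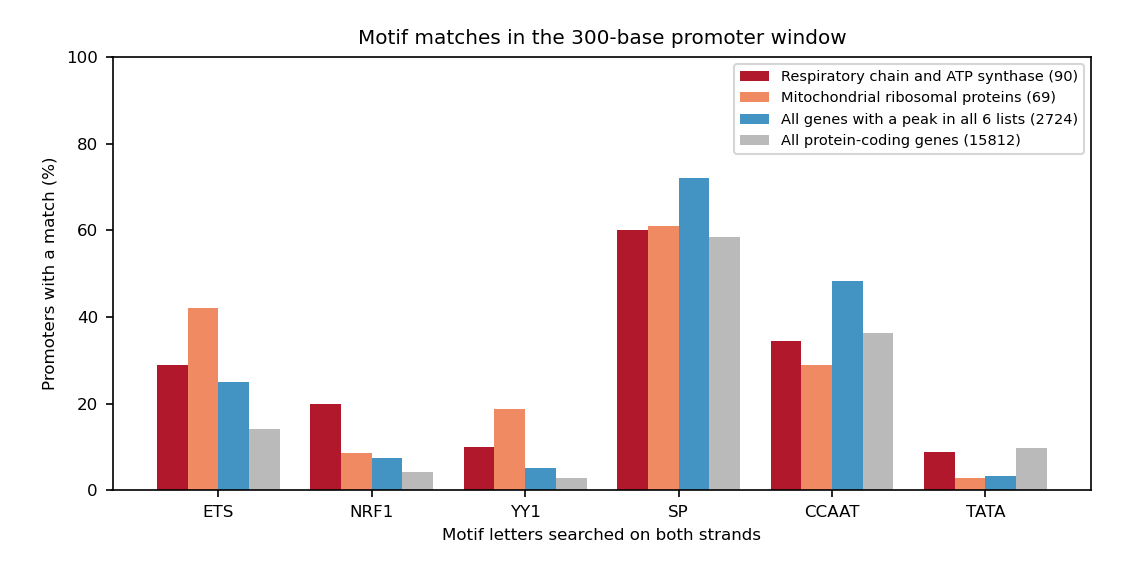
Bars give the share (%) of promoters with at least 1 match to each of 6 sets of motif letters on either strand, for 90 members, 69 mitochondrial ribosomal protein genes, 2724 genes with a peak in all 6 libraries and all 15812 listed protein-coding genes. Members stand at 20.0% for NRF1 and 28.9% for ETS, against 4.26% and 14.2% of all, and near all genes for SP, CCAAT and TATA.

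Members with a peak in all 6 libraries held NRF1 letters in 9 of 27 promoters (33.3%), and members with a peak in 1 to 5 libraries in 8 of 54 (14.8%). The ETS shares in the same sets were 33.3% and 29.6%. Members with no gene-end peak held NRF1 letters in 1 of 9 promoters and ETS letters in 1 of 9. All listed genes differed in the same direction. With no gene-end peak, 1.63% held NRF1 and 4.96% ETS letters, against 7.38% and 25.0% with a peak in all 6 libraries. These sets follow peaks at gene ends, while the letters were searched at the first-listed start. NDUFAF3, NDUFA5, COX7A2L and ATP5MC2, without a gene-end peak, had a peak at a listed start in all 6 libraries, and COX7A2 in 4. The differences between the sets were not tested. The median GC content of the member promoters was 61.7%, against 62.7% for all, and the median number of CpG was 23 against 22.

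Other genes of the pathway were compared from lists, to be read against the 15.8% of all genes with a peak in all 6 libraries and the 41.8% with none. The 6 genes for electron carriers and complex III outside the symbols used had 3 in all 6 libraries (CYCS, which encodes cytochrome c, ETFDH and DHODH) and none without a peak. Of 40 further assembly factors, 15 (37.5%) were in all 6 and 1 (2.5%) in none. Coenzyme Q synthesis had 6 of 13 in all 6 and the tricarboxylic acid cycle 8 of 18, with none lacking a peak in either list. Among 15 regulators of respiratory genes, GABPA, GABPB1, SP1, TFAM, TFB1M and TFB2M had a peak in all 6, and 3 had none.

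Of these lists, IDH3B, a subunit of isocitrate dehydrogenase, was the only gene with a peak in WT and not V2084D, a pattern of 0.0501% of all protein-coding genes. A peak in V2084D and not WT, the pattern of 5.07% of all genes, was found at NUBPL, ACAD9 and COA8 among the assembly factors, at COQ9, at SUCLA2 and DLAT of the tricarboxylic acid cycle, and at POLRMT, the mitochondrial RNA polymerase. For V2084D and not V2084D shSTUB1 (0.656% of all genes) the genes were TMEM126A and COQ9. In V2084D shSTUB1 and not WT there were 9 of the 40 assembly factors (NUBPL, ACAD9, UQCC2, UQCC3, TACO1, COA3, COA7, COA8 and ATPAF1), together with SUCLA2, DLAT and POLRMT. The 9 are 22.5% of that list, against 7.07% of all genes; no test was made of this share. No gene of these lists had a peak in V2084D shSTUB1 and not V2084D, or in WT and not V2084D shSTUB1.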

How the data were processed

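ATAC-seq peak lists of 6 libraries, 2 per group, were used, with groups taken from the sample titles. The submitters' processing notes name hg38 as the build and list MACS2 for peaks, with Trimmomatic, Bowtie2, SAMtools, Picard, bedtools and deepTools. No source used here gives versions or settings, or says if reads were shifted to the transposase cut site. The authors called peaks per library. Each deposited score is the whole part of 10 times the −log10 q of that peak. Deposited fold values are a ratio of signal to the local background. The −log10 p and −log10 q were also computed by the authors' caller, and both these and the folds describe peaks within a list only. Whole reads at summits and relative depth were recovered from the deposited fold and −log10 p with MACS2's Poisson model and a pseudocount of 1, to a tolerance of 0.001 in −log10 p, for 99.99% to 100% of summits.

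Peaks on chromosomes 1 to 22 and X were assigned to protein-coding genes of a RefSeq GRCh38 table (Python 3.11.15, pandas 2.3.3, NumPy 2.4.6, SciPy 1.17.1, matplotlib 3.10.9) and the scripts were tested on simulated data. The table gives no exons, so whether a peak is exonic or intronic was not determined. Promoter sequences (RefSeq, GRCh38.p14) matched 90 of 109 members. Members, lists and tests were chosen with earlier results of these data known. Genes were named by rule: group-only patterns in members and pathway lists; per complex, and for assembly factors apart, up to 3 leading members with peaks in all 6 libraries by mean percentile of −log10 q; members with peaks in 0 or 5 libraries; and members sharing a peak. Other members were named for their role after their values were seen. Alternatives were −log10 q of at least 5, equal list lengths of 7234 summits, windows of 500 and 2000 bp, listed start sites only, summits inside the window, a replicate block and the omission of each library in turn. A member gene is counted in the totals but is not reported here by itself.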

Additional observations from a re-analysis of the deposited data

How the results depend on the processing

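Windows of 500 or 2000 bp and summits inside the window kept all 8 counts within 1.5 times of their values, and listed start sites moved 1, the members without a peak, to 4 (of the 90 members listed). With −log10 q of at least 5, members with a peak in all 6 libraries fell to 7 (6.42%, against 3.18% of all genes). Those in none rose to 27 (24.8%, against 54.4%). The count for V2084D, not WT became 3 (2.75%, against 3.44%), and for V2084D shSTUB1, not WT 13 (11.9%, against 6.11%). For V2084D, not V2084D shSTUB1 it became 1 (0.917%, against 0.766%), and for the opposite direction 3 (2.75%, against 0.466%). For WT, not V2084D shSTUB1 it became 1 (0.917%, against 0.17%). With equal list lengths, 13 members (11.9%, against 8.41% of all genes) had a peak in all 6. The counts became 3 (WT, not V2084D), 2 (V2084D, not WT), 5 (V2084D shSTUB1, not V2084D), 3 (WT, not V2084D shSTUB1) and 4 (V2084D shSTUB1, not WT). In that order the member shares were 2.75%, 1.83%, 4.59%, 2.75% and 3.67%, against 1.74%, 1.97%, 1.28%, 1.75% and 1.75% of all genes. Leaving out 1 library at a time gave 31 to 40 members in all remaining libraries (28.4% to 36.7%, against 15.8% to 21.7% of all genes). Those in none were 15 to 17 (13.8% to 15.6%, against 41.9% to 46.7%). The group counts were 0 to 9 (WT, not V2084D), 10 to 22 (V2084D, not WT), 3 to 10 (V2084D, not V2084D shSTUB1), 0 to 21 (V2084D shSTUB1, not V2084D), 0 to 2 (WT, not V2084D shSTUB1) and 10 to 22 (V2084D shSTUB1, not WT). In that order the member shares reached at most 8.26%, 20.2%, 9.17%, 19.3%, 1.83% and 20.2%. The shares of all genes were 0.0601% to 3.49%, 5.52% to 18.9%, 0.941% to 6.24%, 0.446% to 10.8%, 0.305% to 0.981% and 9.25% to 15.8%. A group reduced to 1 library meets its condition more easily, by construction. The difference in members with a peak ran from 1.5 to 35.5 (V2084D minus WT), from -14.5 to 19.5 (V2084D shSTUB1 minus V2084D, reversed to -14.5 without V2084D 1 and to -4.0 without V2084D shSTUB1 1) and from 13.5 to 28.5 (V2084D shSTUB1 minus WT). With the replicate number as a block the differences stayed 18.5, 2.5 and 21.0, with exact permutation p of 1, 1 and 0.5, where 0.5 is the smallest p that 2 pairs allow; nothing in the labels says that the numbers pair libraries. The cause of these changes was not tested. Intervals for single libraries were not computed, because counts of genes are not counts of sampled reads, and the few reads per summit limit which absences can be read.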
